A study of Bos taurus with 8 samples.

Results

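The transcriptome of fertilised Holstein cattle embryos at the eight-cell stage was described from 3 RNA sequencing libraries, each made from a pool of 8 embryos produced by in vitro fertilisation (IVF). These 3 are the libraries titled as IVF among the 8 of the series, and no other library entered any value below. The other 5 came from cloned embryos, with or without overexpression of the histone demethylase KDM4E. Per the labels, all 8 pools were collected and made into libraries in the same way. The labels give no treatment of the IVF embryos, no parentage, no hours after fertilisation, and no statement that the 3 pools came from separate batches, so the spread between libraries may be technical. Each library holds values for 21258 features, of which 16205 carry Ensembl identifiers and 5052 are loci to which the files give names of their own and no Ensembl identifier, called unannotated loci here. Values are FPKM, fragments scaled to transcript length and to library size. Levels are compared between genes here, but this scaling does not correct for PCR amplification before library making, which can alter levels. Unless another error is named, the number after ± is the SD of the 3 libraries (n = 3).

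A cattle egg stores a large pool of messenger RNA during its growth, and the embryo lives on that pool through its first divisions. Around the eight-cell stage the stored messages are cleared and the embryo's own genome takes over, a step known as genome activation. A library made at that time holds remnants of the egg's store and early products of the new genome side by side. FPKM values cannot tell these sources apart for a given gene, and in pools of whole embryos fewer cells of a type cannot be told apart from less RNA per cell.

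The libraries held the transcripts of eggs and early embryos. Of 11 oocyte and early embryo genes, 11 stood at 10 FPKM or more in each library, the lowest value being 19.6 FPKM for POU5F1. Most of these are egg transcripts that cloned embryos would also carry, so they do not check the IVF label or the stage. Markers of other cells took small shares of FPKM. The summed markers of fibroblasts took 0.00884%, 0.0095% and 0.00621% of FPKM in replicates 1 to 3, and 12 of 19 were under 1 FPKM in each library, COL3A1, COL6A1 and TAGLN among them. The highest, FBN1, a microfibril protein, stood at 26.8 ± 9.01 FPKM. Cumulus and granulosa markers took 0.0307%, 0.0205% and 0.019%, led by STAR (59.2 ± 24.1 FPKM), HAS2 (55.9 ± 14.2 FPKM), SERPINE2 (32.5 ± 17 FPKM) and VCAN (9.57, 17.9 and 9.28 FPKM). Of these 15 markers, 7 reached a mean of 1 FPKM and 4 were under 1 FPKM in each library, AMH at 0, FSHR and CYP19A1 among them. Over all 21258 features, 59.8% reached a mean of 1 FPKM and 14456 reached 1 FPKM in at least 1 library. These counts therefore do not set the cumulus markers apart from other features. STAR and HAS2 also stood above POU5F1 (25 ± 9.06 FPKM). Sperm markers took 0.0114%, 0.0151% and 0.0126%, 74.5% of it on average from LDHC (70.5 ± 10.6 FPKM). ZPBP2 (8.93 ± 1.11 FPKM) and ZPBP (4.14 ± 0.367 FPKM) came next, and TNP1, TNP2 and SPAM1 were listed at 0 in all 3 libraries. Blood markers took 0.00586%, 0.00339% and 0.00519%, with no value above 8.93 FPKM, that of CSF1R in replicate 1. A mean of 1 FPKM was reached by 7 of 15 sperm markers and 8 of 14 blood markers, against 59.8% of all features. These counts do not set sperm or blood markers apart from other features either. The part of other cells in any value below was not tested beyond these levels.

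Replicate 2 stood apart from the other libraries. Over the 5421 features at a mean of 10 FPKM or more, and on the log2(FPKM + 1) scale, 20.4% differed by 2-fold or more between replicates 1 and 2, 12.3% between 2 and 3, and 5.53% between 1 and 3, and Spearman's rho over all features was 0.881, 0.903 and 0.911 for the same pairs. Replicate 2 was below both others by 2-fold or more for 334 features and above both for 115, against 86 and 82 for replicate 1 and 27 and 35 for replicate 3. The median coefficient of variation, SD over mean, was 25.2% with all libraries. It was 16.3% without replicate 2, 20.7% without replicate 1 and 26.6% without replicate 3. A median from 2 libraries tends to lie below one from 3. The 30 most abundant features of each library had 24 in common, and the 100 most abundant had 70. Without replicate 2, the other libraries shared 89 of their 100, against 77 without replicate 1 and 74 without replicate 3.

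Abundance was concentrated in few transcripts. The 10 features with the highest mean FPKM held 24.6%, 25.6% and 24.8% of the summed FPKM in replicates 1, 2 and 3 (25.03% ± 0.537), the first 30 held 34.8% ± 0.754 and the first 100 held 46.3% ± 0.748. In the mean profile, 139 features reached 50% of all FPKM. The 66 features with a mean of 1000 FPKM or more, 0.31% of all features, held 42.2% ± 0.63 of FPKM, and the 973 between 100 and 1000 FPKM held a further 34.2% ± 0.444. At the other end, the 7293 features between 1 and 10 FPKM held 3.79% ± 0.0968 between them. A level of at least 1 FPKM was reached by 12642, 11839 and 12572 features in replicates 1 to 3, by 10344 features in all 3 libraries, and 1956 features were listed at 0 throughout. The files hold no read counts, so the depth behind these numbers is unknown and a value of 0 is given only as listed.

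**Figure D1:**
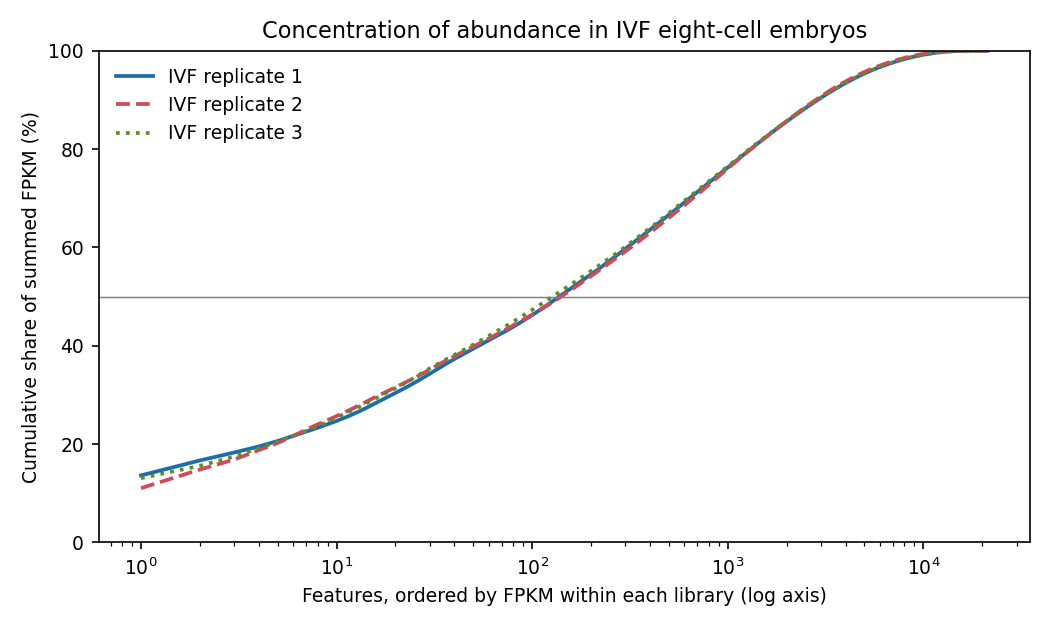
Cumulative share of summed FPKM (y axis, %) against the number of features, ordered by FPKM within each library (x axis, log scale), with 1 line per IVF library and a grey line at 50%. The curves start at 13.6%, 11.0% and 13.1% for the first feature and reach 50% after 138, 141 and 128 features in replicates 1, 2 and 3.

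A single feature on the X chromosome (X, 140973702 to 140975767, UMD3.1) stood far above the rest. It is described as thymosin beta-4, a small peptide that binds free actin, and is called TMSB4X here. Its level was 101255, 77519 and 96027 FPKM in replicates 1, 2 and 3 (91600.3 ± 12472 FPKM), and it took 13.6%, 11.0% and 13.1% of all FPKM. All 3 libraries placed it first, 4.06 times above the second feature on the mean. The file names it by description only, and 5 further features are described as thymosins: TMSB10 at 1736 ± 221 FPKM, an unnamed feature on chromosome 14 at 298 ± 28.6 FPKM, and 3 between 3.99 and 29.4 FPKM. Near-identical copies of thymosin beta-4 can share reads, so how the total divides among those features is uncertain. Without TMSB4X in the total, a setting chosen after its share was seen, the 10 leading features held 15.0% of FPKM and 236 features were needed for 50%.

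The feature that ranked second was BTG4, the adaptor that brings the CCR4-NOT deadenylase to maternal messages and so starts their clearance. It stood at 22629, 26548 and 18516 FPKM in replicates 1, 2 and 3 (22564 ± 4016 FPKM). Among the 6 measured genes of the BTG and TOB family it held 99.6% ± 0.0757 of the FPKM, and the next, BTG1, stood at 51.8 ± 26.9 FPKM. The deadenylases that BTG4 recruits were much lower. CNOT7 was listed at 531, 290 and 337 FPKM (386 ± 128 FPKM), which was 85.9% ± 1.05 of it and its paralogue CNOT8, and CNOT6L stood at 48.8 ± 14.7 FPKM. Across the 11 measured CCR4-NOT subunits the median was 24.7 FPKM and only CNOT7 passed 100 FPKM. PARN, a deadenylase outside that complex, stood at 252 ± 78.6 FPKM, and EXOSC8, a ring subunit of the RNA exosome that degrades RNA from its 3′ end, at 470 ± 198 FPKM. The 55 genes of deadenylation and decay took 3.43% ± 0.676 of FPKM, and 0.318% without BTG4.

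Genes that control the separation of sister chromatids and the cell cycle followed. PTTG1, securin, which holds separase inactive until anaphase, was listed at 7663, 13273 and 12239 FPKM (11058 ± 2985 FPKM), lowest in replicate 1. CKS1B and CKS2, small subunits that bind cyclin-dependent kinases, stood at 5397 ± 1607 and 5351 ± 698 FPKM, and CKS1B made up 49.2%, 54.0% and 45.8% of the pair in replicates 1, 2 and 3. AURKA, the spindle pole kinase, reached 2488 ± 532 FPKM and was 90.2% ± 2.56 of the aurora kinases, with AURKC at 228 ± 78.9 and AURKB at 46.4 ± 26.9 FPKM. Cyclin B1 (CCNB1) ranged from 2905 FPKM in replicate 1 through 1802 in replicate 3 to 943 in replicate 2. WEE2, the oocyte form of the kinase that restrains CDK1, stood at 233 ± 85.9 FPKM and made up 99.2% ± 0.303 of the WEE1 family, whose other members WEE1 (0.927 ± 0.101 FPKM) and PKMYT1 (0.89 ± 0.741 FPKM) were at trace levels. CCNA2 made up 97.1% ± 0.431 of the A-type cyclins. The 101 measured genes of cyclins, CDKs and mitosis held 4.96% ± 0.508 of FPKM, and 3.43% without PTTG1. Of the 101, 91 stood at 1 FPKM or more (90.1%, against 59.8% of all features) and 30 at 100 FPKM or more, against 1039 of all 21258 features.

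Egg proteins outside the cell cycle were also among the leaders. OOSP1, a protein secreted by the oocyte, stood at 9038, 14395 and 9642 FPKM, highest in replicate 2. BMP15 and GDF9, growth factors that the oocyte sends to its follicle cells, stood at 1283 ± 371 and 378 ± 59.1 FPKM. The egg coat genes were in the order ZP4 (777 ± 400.2 FPKM), ZP2 (472 ± 64.2 FPKM) and ZP3 (91.1 ± 53 FPKM); ZP4 and ZP2 were not separated, because replicate 2 had ZP4 at 339 and ZP2 at 403 FPKM. The 13 egg coat and growth factor features together took 1.95% ± 0.353 of FPKM. DPPA3, also called STELLA, which shields the maternal genome from loss of DNA methylation, was listed at 4577, 5698 and 5176 FPKM and varied little (coefficient of variation 10.9%). The enzymes of DNA methylation were lower, with UHRF1 at 159 ± 68.2, DNMT1 at 36.2 ± 11.3, DNMT3B at 5.92 ± 1.42 and DNMT3A at 2.44 ± 0.723 FPKM. The subcortical maternal complex and NLRP genes, needed for the first cleavages, held 0.189% ± 0.014 of FPKM, led by NLRP7 (290 ± 68.1 FPKM), NLRP14 (235 ± 14.8 FPKM), OOEP (206 ± 28.7 FPKM) and NLRP5 (171 ± 112 FPKM).

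Stored messages are kept silent and then switched on by proteins that bind their tails and caps. PAIP1, a partner of poly(A)-binding protein that promotes translation, was the seventh feature at 6621, 9967 and 7011 FPKM (7866 ± 1830 FPKM). Poly(A)-binding proteins themselves were far lower, PABPC1 at 62 ± 32.2 FPKM, PABPC4 at 43.3 ± 5.66 FPKM and the oocyte form PABPC1L at 4.8 ± 1.17 FPKM. ZAR1L, an egg protein that binds RNA, stood at 671 ± 248 FPKM, RBPMS at 671 ± 147 FPKM and the poly(A) polymerase PAPOLG at 461 ± 61.9 FPKM. The cap-binding protein EIF4E (858 ± 256 FPKM) made up 86.6% ± 6.93 of its family, and its oocyte form EIF4E1B stood at 102 ± 43.5 FPKM. The general factors EIF1 (868 ± 152 FPKM) and EIF4A1 (850 ± 169 FPKM) were at the level of EIF4E, and EIF3E followed at 588 ± 219 FPKM. The 3 highest of these translation factors did not differ beyond their spread.

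**Figure D2:**
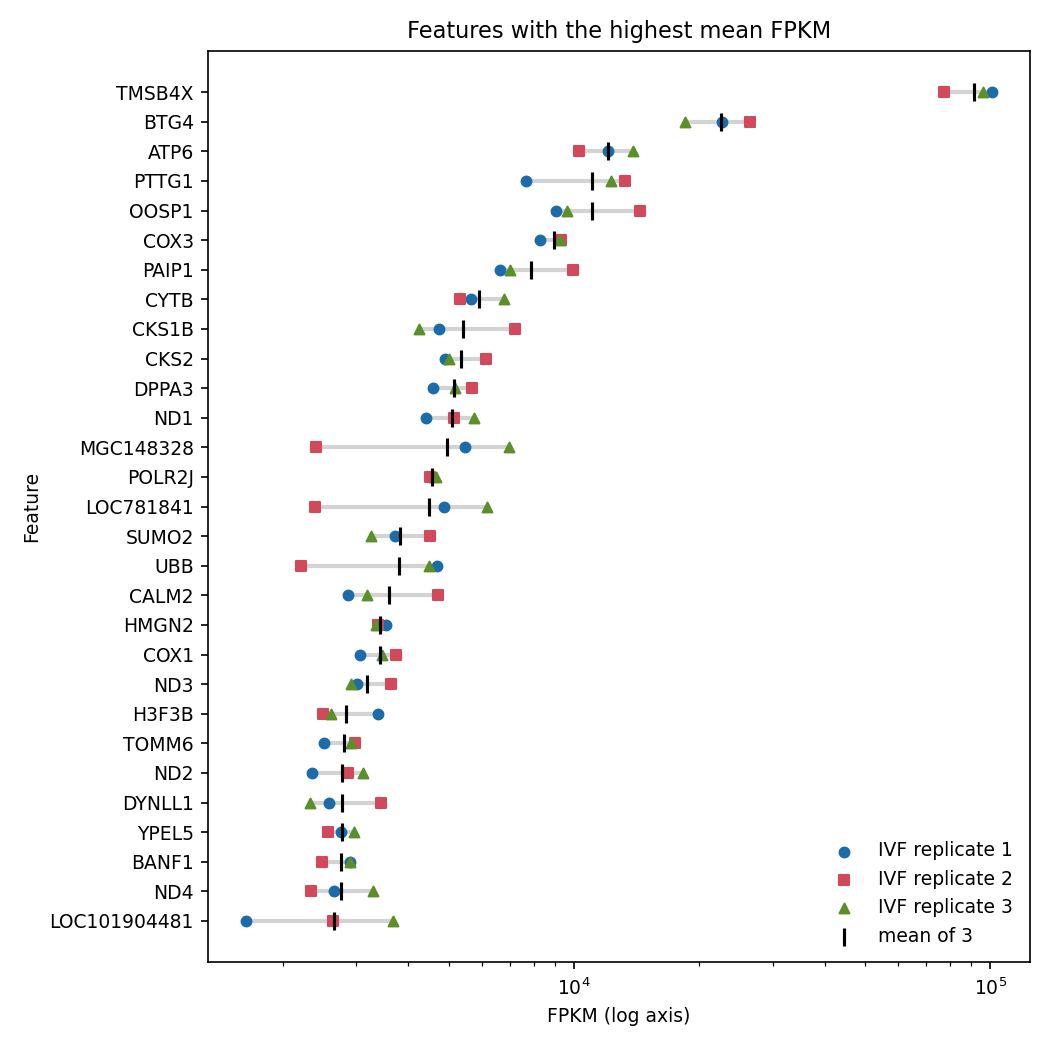
FPKM (x axis, log scale) of 29 of the 30 features with the highest mean (1 is not reported here), 1 row per feature; symbols are the 3 IVF libraries, black ticks their mean and grey bars their range. TMSB4X lies between 77519 and 101255 FPKM and BTG4 between 18516 and 26548 FPKM, above every other feature in each library, while POLR2J and HMGN2 have the tightest ranges (coefficients of variation 1.96% and 2.98%).

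Of the 30 leading features, 8 are encoded by the mitochondrial genome and 22 by the nuclear one, 3 of these on the X chromosome. The coefficient of variation of the 30 ran from 1.96% to 47.3% with a median of 15.6%. The thirtieth feature, LOC101904481, described as a tropomyosin-like protein, had a mean of 2647 FPKM and the next, the exon junction protein MAGOH, 2606 FPKM, so the border between them is arbitrary. POLR2J, a small subunit of RNA polymerase II, was listed at 4508, 4496 and 4657 FPKM, the tightest of the 30. It stood apart from its complex, since the 12 measured polymerase II subunits had a median of 33 FPKM, the second highest, POLR2F, stood at 113 FPKM and the catalytic subunit POLR2A at 6.77 ± 2.9 FPKM. SUMO2, a ubiquitin-like modifier, was listed at 3710, 4498 and 3252 FPKM and made up 81.6% ± 1.22 of the SUMO genes. The ubiquitin precursor UBB was at 4686 and 4473 FPKM in replicates 1 and 3 and at 2211 FPKM in replicate 2. Other leaders were HMGN2, a nucleosome-binding protein (3425 ± 102 FPKM), the histone H3.3 gene H3F3B (2824 ± 480 FPKM, against 604 ± 141 FPKM for H3F3A), TOMM6 of the mitochondrial import pore (2795 ± 255 FPKM), the dynein light chain DYNLL1 (2773 ± 586 FPKM, against 42.7 ± 4.2 FPKM for DYNLL2), YPEL5 (2762 ± 197 FPKM) and BANF1, which bridges DNA to the nuclear envelope (2756 ± 246 FPKM).

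A pair of X-linked features described as spermatid nuclear transition protein 3 or like it ranked 13 and 15. MGC148328 (X, 29091246 to 29091757) was listed at 5478, 2398 and 6995 FPKM and LOC781841 (X, 25444909 to 25445676) at 4861, 2388 and 6162 FPKM in replicates 1, 2 and 3. Both were about 2 to 3 times lower in replicate 2 than in the other libraries, and the 2 lie in different parts of the chromosome. In all, 13 features carry such a description, 11 of them on the X chromosome. A mean of 1 FPKM was reached by 8 of the 13, against 59.8% of all features, so that count does not set the group apart. All 8 were on the X chromosome, where most of the group lies. The 13 features took 1.42%, 0.688% and 1.84% of FPKM. The autosomal sperm genes TNP1 and TNP2, which carry the same protein name with other numbers, were listed at 0 in each library. The names come from automatic descriptions, and these features may share reads. This group, like the other groups taken from descriptions below, was chosen after its values were seen.

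Mitochondrially encoded transcripts held 6.08%, 6.58% and 7.10% of FPKM in replicates 1 to 3 (6.59% ± 0.514). ATP6, a subunit of ATP synthase, was the third feature overall at 12066 ± 1768 FPKM, followed by COX3 (8942 ± 572 FPKM), CYTB (5926 ± 763 FPKM) and ND1 (5096 ± 674 FPKM). Of the 11 listed above 0 in each library, the lowest were ND6 (972 ± 216 FPKM), the gene of these on the opposite strand, and ND5 (936 ± 255 FPKM), which overlap at their ends. COX2 was listed at 726 and 857 FPKM in replicates 1 and 2 and at 0 in replicate 3, where its neighbours COX1 and COX3 stood at 3457 and 9244 FPKM. It was the single feature with a value of 0 in 1 library and of 50 FPKM or more in another. A further feature (ENSBTAG00000043564.1, MT, 8129 to 8329), which overlaps ATP6, was listed at 0 in all 3 libraries. Both zeros can be failed estimates. Nuclear genes for the same respiratory chain took 1.31% ± 0.0744, led by ATP5J (916 ± 57 FPKM) and COX7A2L (917 ± 495 FPKM). Of the 85 features, 81 stood at 1 FPKM or more (95.3%, against 59.8% of all features). COX7A2L was listed at 1372, 390 and 988 FPKM, so its order against ATP5J differed between libraries.

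Functional groups took very different shares of FPKM. Genes of actin, tubulin, keratin and their regulators came first at 14.2% ± 1.47, but without TMSB4X they held 1.57%. The 313 ubiquitin and ubiquitin ligase features held 2.60% ± 0.0756, the 97 splicing factors and hnRNPs 1.78% ± 0.0712 and the 74 histone and stem-loop binding features 1.76% ± 0.0338. Cytosolic ribosomal proteins held 2.06%, 1.93% and 1.92% of FPKM, with 81 of 82 features at 1 FPKM or more, none at 1000 FPKM and a median of 116 FPKM. Their leaders were RPS27A (970 ± 50.4 FPKM), RPSA (894 ± 252 FPKM), FAU (877 ± 140 FPKM) and RPL35A (712 ± 104 FPKM). The median was 163 FPKM over 30 small subunit features and 80.7 FPKM over 44 large subunit features. Mitochondrial ribosomal proteins, 75 of 75 at 1 FPKM or more, held 0.667% ± 0.0569 with a median of 29.1 FPKM. Over all features, for comparison, 59.8% reached a mean of 1 FPKM and the median was 1.92 FPKM.

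**Figure D3:**
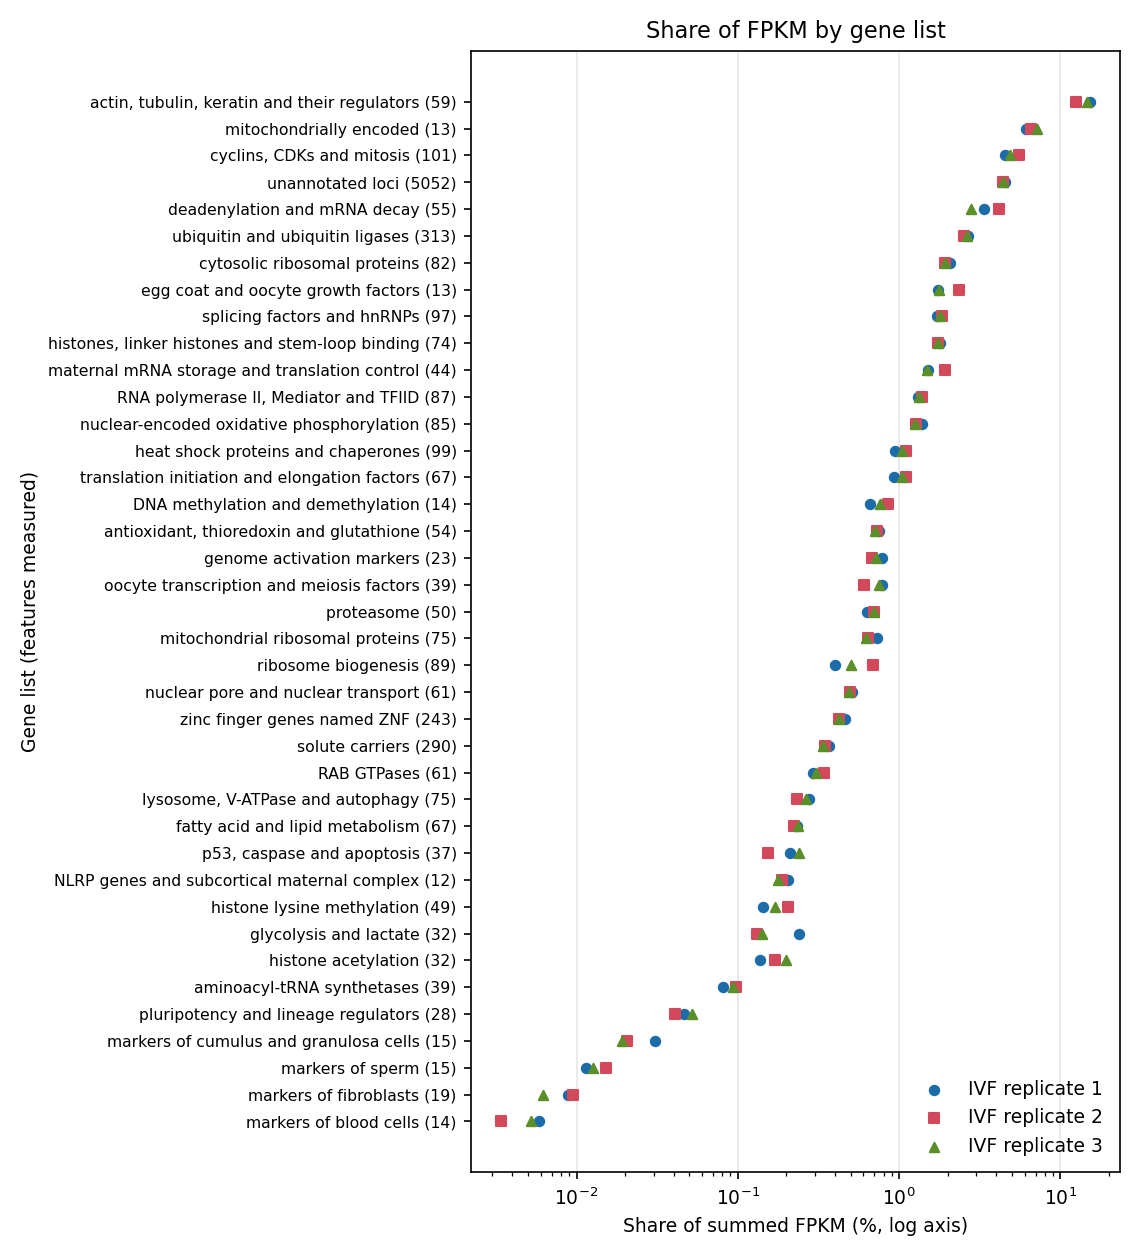
Share of summed FPKM (x axis, %, log scale) of each gene list (rows, with the number of features measured in brackets), with 1 symbol per IVF library. The symbols of a row lie close together for ribosomal proteins, splicing factors and unannotated loci and apart for glycolysis, where replicate 1 (0.239%) lies above replicates 2 and 3 (0.131% and 0.141%).

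In the glycolysis list a single gene held most of the FPKM. LDHA, which makes lactate, was listed at 1221 FPKM in replicate 1 and at 537 and 543 FPKM in replicates 2 and 3, and held 61.7% of the list. Among the other members GAPDH stood at 95.9 ± 38.5 FPKM, the germ cell form LDHC at 70.5 ± 10.6 FPKM and PGAM1 at 54.5 ± 19.4 FPKM. A mean of 1 FPKM was reached by 19 of 32 members (59.4%), much as by 59.8% of all features. The antioxidant list was led by GSTM3, a glutathione transferase (1348 ± 116 FPKM), the peroxiredoxins PRDX1 (876 ± 99.4 FPKM) and PRDX2 (656 ± 110 FPKM), and SOD1, the cytosolic superoxide dismutase (724 ± 220.1 FPKM). Among chaperones, AHSA1 (717 ± 63.8 FPKM), HSPE1 (690 ± 70.5 FPKM), PPIA (631 ± 123 FPKM) and PFDN1 (588 ± 40.3 FPKM) led a list that held 1.03% ± 0.0834. The proteasome held 0.676% ± 0.0364, led by the core subunit PSMA5 (1187 ± 178 FPKM) and the assembly factor POMP (675 ± 84.4 FPKM). In the fat metabolism list, the fatty acid carriers FABP3 (549 ± 101 FPKM) and FABP5 (155 ± 28.1 FPKM) came first. Solute carriers, the membrane transporters, had 290 features but 0.351% ± 0.0152 of FPKM and 1 member at 100 FPKM or more, the peroxisomal SLC25A17 (330 ± 11.1 FPKM). In the apoptosis list, BCL2L10, an egg-rich inhibitor of cell death, led at 864, 321 and 966 FPKM, followed by CASP6 at 361 ± 34.4 FPKM.

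The histone list had H3F3B first, then H2AFZ, the H2A.Z variant (1773 ± 367 FPKM), SLBP2, an oocyte stem-loop binding protein for histone messages (1444 ± 146 FPKM) and HIST1H2AK (1270 ± 252 FPKM). SLBP2 held 87.3% ± 2.31 of the FPKM that it shared with SLBP. Copies of core histone genes are close in sequence, so values of single histone features are uncertain. The linker histones differed in order between libraries: the oocyte form H1FOO held 70.1% and 60.7% of linker histone FPKM in replicates 1 and 3 and 28.1% in replicate 2, where HIST1H1A held 51.7%. Of the importin alpha genes, which carry proteins into the nucleus, replicate 2 was apart for one and not the other, with the egg form KPNA7 at 1565, 514 and 1291 FPKM and KPNA2 level at 929, 930.1 and 856 FPKM. Among transcription factors of the basal machinery, TBPL1, a relative of the TATA-binding protein, stood at 1129 ± 51.3 FPKM and TBPL2, its oocyte relative, at 16 ± 2.9 FPKM. Histone methylation enzymes and readers (0.173% ± 0.0312) were led by DPY30 (385 ± 99.2 FPKM), a subunit of the H3K4 methyltransferases, and KMT5B (238 ± 55.9 FPKM), and acetylation genes (0.168% ± 0.031) by RBBP7 (579 ± 179 FPKM) and RBBP4 (246 ± 35.5 FPKM), histone-binding subunits of several complexes.

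Genes linked to genome activation in mammals, its regulators included, were present at widely different levels. FPKM cannot tell their stored from their new transcripts, so their presence does not show activation. Of the 39 names on the list, 17 were not matched by symbol, ZSCAN4 and DUXA among them, and are not analysed here. The matched names gave 23 features, 23 of them at a mean of 1 FPKM or more, against 59.8% of all features. They held 0.726% ± 0.0511 of FPKM, 0.255% without HMGN2. SUPT4H1, a transcription elongation factor, was listed at 888, 360 and 588 FPKM and KLF17, a zinc finger factor, at 355, 155 and 359 FPKM, both lowest in replicate 2. LEUTX, a paired-like homeobox factor of early embryos, was level at 235, 252 and 245 FPKM, and ARGFX, of the same class, stood at 184, 56.6 and 135 FPKM. EIF1AX, a translation factor often used as a marker of activation in cattle, was level at 181, 177 and 183 FPKM. DPPA2, a regulator of activation genes, was listed at 24.2, 3.79 and 16.7 FPKM, a range of 6.38-fold, and its partner DPPA4 at 2.15, 0.38 and 1.8 FPKM. UBTFL1 stood at 1.85, 1.44 and 6.29 FPKM, and the second of the RLIM features (ENSBTAG00000040357.2) at 0.12, 1.43 and 2.59 FPKM. The list's median coefficient of variation was 33.8% over 15 features at a mean of 10 FPKM or more, against 25.2% over all 5421 such features.

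The measured factors of pluripotency and of the first lineages held a far smaller share. Of the 41 names on this list, 13 were not matched by symbol, CDX2 and SOX17 among them, and are not analysed here. The contrast depends on how genes were listed. KLF17, TFAP2C, KLF4 and GATA3 are on the activation list and DPPA3 is on that of DNA methylation. The 28 measured members held 0.0466%, 0.0406% and 0.0518% of FPKM. A mean of 1 FPKM was reached by 18 (64.3%), against 59.8% of all features. None reached 100 FPKM, a level that 1039 of all 21258 features reached. These counts do not set the list apart from other features. GDF3, a secreted factor of the TGF-beta family, led at 118, 67.4 and 99.3 FPKM, followed by STAT3 (83.9 ± 23.4 FPKM), SALL4 (36.5 ± 11.4 FPKM) and POU5F1, the OCT4 gene, at 35.4, 19.6 and 19.9 FPKM. CDH1, the adhesion protein of compaction, stood at 21.5 ± 10.2 FPKM and YAP1 at 16.2 ± 7.1 FPKM. SOX2 was listed at 3.99, 5.15 and 4.93 FPKM and NANOG at 7.58, 1.86 and 3.09 FPKM. Their means of 4.69 ± 0.616 and 4.18 ± 3.01 FPKM did not differ beyond the spread of NANOG. Libraries differed by more than 4-fold also for ZFP42 (0.83, 1.54 and 12.8 FPKM), PDGFRA (0.46, 7.91 and 2.38 FPKM), PRDM14 (2.7, 0.25 and 3.84 FPKM), GATA6 (1.08, 2.43 and 0.4 FPKM) and GATA4 (0.44, 0.04 and 0.04 FPKM). TEAD4, which directs the outer lineage, did not pass 0.21 FPKM, KRT18 did not pass 0.09 FPKM, NODAL was listed at 0, 1 and 0.4 FPKM, and LEFTY2 was listed at 0 throughout.

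**Figure D4:**
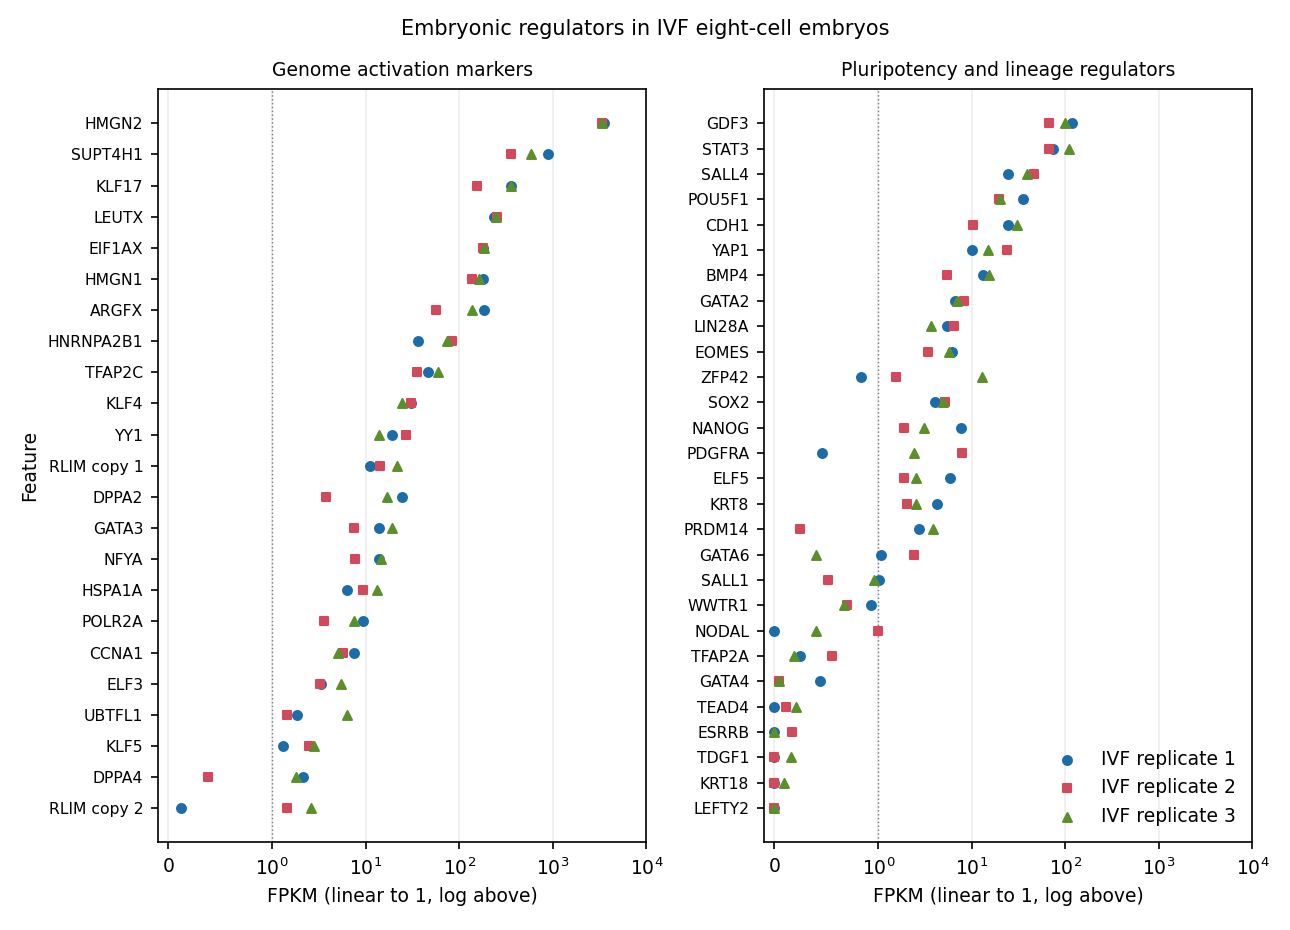
FPKM (x axis, linear up to 1 and logarithmic above, dotted line at 1) of genome activation markers (left) and of pluripotency and lineage regulators (right), 1 row per feature and 1 symbol per IVF library; RLIM has 2 features, shown as copies. The left panel reaches 3425 FPKM on the mean for HMGN2, and on the right no member has a mean above 94.9 FPKM.

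Several groups of early embryo genes were found through descriptions and not by symbol. A pair of features on chromosome 29 is described as like TRIM43, a gene family of the cleavage embryo. The annotated one (ENSBTAG00000009197.5, 29, 5682483 to 5689074) was listed at 846, 2006 and 1564 FPKM and the unannotated one (BGI_novel_G003113, 29, 5775843 to 5781074) at 612, 1594 and 1073 FPKM, both lowest in replicate 1. PRAME-like genes, a family of the germ line and early embryo, had 48 features and held 0.295% ± 0.0562 of FPKM. Of the 48, 35 reached a mean of 1 FPKM and 8 reached 100 FPKM. Over all 21258 features, 59.8% reached 1 FPKM and 1039 reached 100 FPKM. The highest were LOC530538 on chromosome 16 at 557, 166 and 346 FPKM and LOC525100 on chromosome 16 at 253, 151 and 395 FPKM. Of the 16 at 10 FPKM or more, 4 were on chromosome 29. An unannotated locus on chromosome 18 (BGI_novel_G001808, 18, 64566119 to 64577640), described as a member of the DUX homeobox group, stood at 496, 412 and 688 FPKM. MBD3L3, a methyl-CpG-binding domain relative, was listed at 1862, 1314 and 1826 FPKM.

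Unannotated loci as a whole held 4.51%, 4.37% and 4.39% of FPKM (4.42% ± 0.0737). A mean of 1 FPKM was reached by 2646 of 5052 (52.4%), against 59.8% of all features. Of these loci 56 reached 100 FPKM and 3 reached 1000 FPKM, against 1039 and 66 of all 21258 features. The leading locus (BGI_novel_G000366, 10, 42669220 to 42671836) was listed at 2348, 1462 and 2084 FPKM and is described only as like an uncharacterised camel protein. The next (BGI_novel_G000649, 12, 9083757 to 9084920), described as like BCL2L10, stood at 1225, 721 and 1375 FPKM, a pattern of libraries like that of BCL2L10 itself, with which it may share reads. Loci described as retroelement or transposon numbered 691 and held 0.368% ± 0.0344. Of the 691, 321 stood at 1 FPKM or more (46.5%, against 52.4% of all unannotated loci) and 4 at 100 FPKM or more. The first of these (BGI_novel_G003836, 5, 101846698 to 101853762), described as like a reverse transcriptase, stood at 441, 469 and 379 FPKM. A locus described as a mariner transposase (BGI_novel_G003385, 3, 88758282 to 89039310) was listed at 301, 545 and 111 FPKM. Reads from repeated sequences can be placed at more than 1 locus, so values of single elements are uncertain. Several unannotated loci overlap each other and are not separate genes.

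Short loci were frequent among the leaders, though not over all genes. Among the 100 features with the highest mean, 30 spanned under 2000 bases of the genome, introns included, of which 11 were mitochondrially encoded, against 5.93% of the 9883 annotated features at 1 FPKM or more in at least 2 libraries, and the median span was 4809 against 23695 bases. Over those annotated features Spearman's rho between span and mean FPKM was -0.03. The X chromosome held 17.2%, 13.7% and 17.1% of FPKM, and its features other than TMSB4X held 3.43% of a total that includes TMSB4X. Chromosome 15, which holds BTG4 and OOSP1, followed among the autosomes with 6.73% ± 1.04.

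The spread between libraries was narrower for abundant transcripts. The median coefficient of variation was 44.1% for features with a mean from 1 to 10 FPKM, 26.4% from 10 to 100, 21.0% from 100 to 1000 and 16.8% at 1000 FPKM or more. Among the 927 named features at 100 FPKM or more, 161 were under 10%, 49 were over 50% and 1 was over 100%. The tightest were UBE2V2, a ubiquitin-conjugating enzyme variant (166, 166 and 164 FPKM, 0.54%), the respiratory chain protein NDUFA4 (1.09%), CEP44 of the centrosome (1.68%), EIF1AX (1.71%), DUT, which keeps uracil out of DNA (1.79%), and SRP19 of the signal recognition particle (1.94%). The widest was CETN3, a centrin of the centrosome, at 54.6, 654 and 170 FPKM (109%). After COX2 (87.5%) came TMEM37 at 152, 33.9 and 252 FPKM, RFK, a flavin kinase, at 212, 44.4 and 98.1 FPKM, CPEB1, which controls the tails of stored messages, at 684, 139 and 338 FPKM, and EIF5A at 99.2, 36.5 and 188 FPKM. In each of these widest genes replicate 2 was at one end of the range, but this was common. Of all 5421 features at a mean of 10 FPKM or more, replicate 2 was lowest for 2178 and highest for 2108. At the other end of the range stood replicate 3 for COX2, TMEM37 and EIF5A, and replicate 1 for CETN3, RFK and CPEB1.

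**Figure D5:**
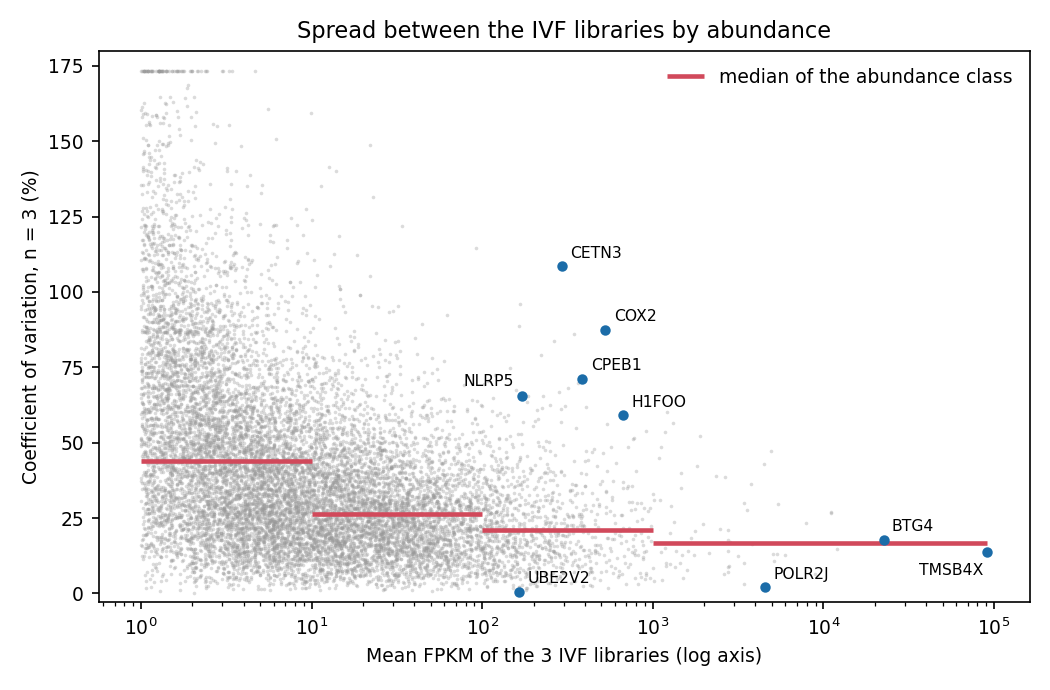
Coefficient of variation of FPKM over the 3 IVF libraries (y axis, %) against mean FPKM (x axis, log scale) for features at a mean of 1 FPKM or more; grey points are features, red lines the medians of 4 abundance classes, and blue points named genes. The medians step down from 44.1% to 16.8%, with CETN3 (109%) and CPEB1 (71.3%) far above and UBE2V2 and POLR2J far below their class.

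Among genes chosen after their values were seen, those low in replicate 2 included H1FOO (979, 223 and 811 FPKM in replicates 1, 2 and 3), ZP4 (1124, 339 and 868 FPKM), KPNA7 and CPEB1. Those higher in it included NLRP5 (91.3, 299 and 123 FPKM) and NPM1, a nucleolar chaperone of ribosome assembly (687, 1882 and 949 FPKM). By list, the median difference of replicate 2 from the mean of all 3 libraries, as log2(FPKM + 1) over members at 10 FPKM or more, was -0.42 for glycolysis, -0.28 for pluripotency and lineage regulators, -0.25 for mitochondrial ribosomal proteins, -0.24 for both the lysosome list and the NLRP list, -0.22 for egg coat and growth factors, and -0.21 for the actin list and for genome activation markers. On the other side were lipid metabolism at 0.18 and histone methylation at 0.14, against 0.00 over all features. Replicate 1 often deviated as far the other way, by 0.53 for glycolysis, 0.28 for pluripotency and lineage regulators, 0.23 for mitochondrial ribosomal proteins, 0.25 for the NLRP list and -0.24 for histone methylation. It deviated less for egg coat and growth factors (0.04) and genome activation markers (0.09), for which replicate 3 deviated by 0.15 and 0.27. Because deviations are taken from the mean of all 3 libraries, a gene below that mean in 1 library must be above it in another. Members at 10 FPKM or more numbered only 11 for glycolysis, 7 for pluripotency and 9 each for the NLRP and egg coat lists. The markers of other cells had few members at that level, with replicate 2 medians of 0.50 over 3 fibroblast markers and -0.21 over 4 cumulus markers. Their part in the difference of replicate 2 was not tested. The deviation of a library went with genomic span across genes, with Spearman's rho 0.28 in replicate 2, -0.24 in replicate 1 and -0.12 in replicate 3, values that share libraries and are a description only. Whether span, library making or the embryos of that pool had a part in these differences was not tested.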

How the data were processed

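RNA from pools of 8 embryos was sequenced. SuperScript III was used for reverse transcription and the product, given a poly(A) tail, was amplified by PCR with Ex Taq before shearing and NEBNext Ultra library making, per the labels' protocols. Such amplification can alter levels. Tools listed in the submitters' processing notes, without roles, include RSEM 1.2.12 and Bowtie2 2.2.5, StringTie 1.0.4, and HISAT 0.1.6, with build UMD3.1. The authors deposited FPKM per feature to 2 decimals, per the file headers. No counts or depths are in these files, so no interval was computed. How strand was treated is not given in the sources used here, so overlapping genes on opposite strands, such as ND5 and ND6, may share reads.

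Symbols came from the files for 14158 features, from RefSeq protein accessions (ARS-UCD2.0 table, names only) for 386 and from descriptions for 21, leaving 6693 unnamed. Some symbols and descriptions disagree. FTL and MANBA are therefore not described, and the value of PAIP1 is that of ENSBTAG00000020376.4.

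Shares are percentages of summed FPKM. The share of a list or chromosome without its leading member keeps that member in the total, unless the text takes it out of the total. Features were ranked by mean FPKM. The coefficient of variation used features at 10 FPKM or more unless stated. No groups were compared and no test was made. Calculations used Python 3.11.15, pandas 2.3.3, numpy 2.4.6 and, for plots, matplotlib 3.10.9, and were checked on simulated data. Genes named were the 30 leading features, up to 4 leaders of each list (6 for lineage and other-cell lists, with members that differed over 4-fold between libraries), the 6 widest and 6 tightest named features at 100 FPKM or more, and paralogues of leaders. All others were chosen after their values were seen. Members and lists were chosen with earlier results of these data known. Alternatives were other scales, filters, thresholds and rankings, and leaving out each library. Some items, 1 of the 30 leaders among them, are not reported here.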

Additional observations from a re-analysis of the deposited data

How the results depend on the processing

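No paired analysis was possible because no result comes from a test and only 1 group was described. The 59 alternatives of the main results left 43 within the spread between libraries, or within 1.5 times for counts. For the coefficient of variation, the spread used was the SD of its values with 1 library left out. The share of a fixed list cannot move past the SD when 1 library is left out. Rescaling a library does not change shares within it. The count of 43 is therefore no measure of robustness. The 10 leading features held 25.03% of FPKM, 26.2% over features with an annotation identifier only, 15.0% without TMSB4X (added after its share was seen) and 25.04% to 25.24% when 1 library was left out. Without TMSB4X, 236 instead of 139 features made up 50% of FPKM (134 to 144 with 1 library left out). Features at FPKM of at least 1 averaged 12351 and 7375 at a threshold of 5 (12206 to 12607 with 1 library left out). The shared 70 of the leading 100 became 24 of 30 and 219 of 300, which follows from the list length, and 74 to 89 with 1 library left out. The median coefficient of variation of 25.2% was 33.8% at a mean of 1 FPKM or more, 48.7% without a filter, and 16.3% to 26.6% with 1 library left out, lowest without replicate 2. With the 10 leading features out of the total, the mitochondrially encoded share was 3.85%, the ribosomal protein share 2.63% and the unannotated share 5.90%, and without TMSB4X they were 7.54%, 2.26% and 5.06%. With 1 library left out they were 6.33% to 6.84%, 1.93% to 2.00% and 4.38% to 4.45%. The unannotated share was 4.27% over features at 1 FPKM or more in at least 2 libraries. Those changes follow from the features left out. Of the 30 leaders, 28 or 29 stayed under each other ranking and without each library, and 4 of 150 ranks moved by over 1.5 times, all of OOSP1, CKS1B or MGC148328. Depth is unknown, which limits low values most.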
